A study of Mus musculus with 16 samples.

Results

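The genes described here were the 10 phosphoinositide 3-kinase, PIKfyve complex and 4-phosphatase genes *Pik3c2a*, *Pik3c2b*, *Pik3c3*, *Pik3r4*, *Pikfyve*, *Fig4*, *Vac14*, *Pik3ca*, *Pik3r1* and *Inpp4a*, chosen by name from the 41388 genes of the count table. RNA was sequenced from the quadriceps of C57BL/6 mice (C57BL6J in the study's methods) that carried or lacked *Mtm1*, the gene of the phosphoinositide 3-phosphatase myotubularin whose loss causes X-linked centronuclear myopathy. The 4 groups held 4 libraries each, all labelled as postnatal day 36, where a supplementary legend of the study gives the day before. WT mice (replicates 1 to 4) and *Mtm1* KO mice (replicates 9 to 12), labelled Mtm1 -/- with exon 4 deleted by homologous recombination, received no tamoxifen. WT + TAM mice (replicates 5 to 8) and *Mtm1* KO + TAM mice (replicates 13 to 16) were given tamoxifen citrate at 40 mg/kg in the chow from day 21, and the labels allow treatment to end before day 36 in an animal that reached a humane endpoint. The libraries were made from whole muscle, so all cells of the tissue contributed. The study describes the samples as littermates, but no source used here ties a library to a litter, so p-values measure the spread between these samples. The study compared genotypes and tamoxifen treatment in 14 of the libraries, leaving out WT 1 and KO 12, and the same 14 were used below unless stated.

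Phosphoinositides are membrane lipids whose inositol ring carries phosphates at different positions, and each form marks a different membrane. Class I kinases make the 3,4,5-trisphosphate at the plasma membrane downstream of insulin and growth factor receptors, class II kinases make 3-phosphorylated forms at the plasma membrane and on endosomes, and the class III kinase makes phosphatidylinositol 3-phosphate (PtdIns3P) on endosomes and autophagosomes. PIKfyve adds a phosphate to PtdIns3P to give PtdIns(3,5)P2, working in a complex with the scaffold protein VAC14 and the phosphatase FIG4. Myotubularin removes the 3-phosphate from both PtdIns3P and PtdIns(3,5)P2, so the kinases that make these lipids produce what the missing enzyme consumes.

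The results below turn on the 3 genes of the PIKfyve complex, because *Vac14* was the one gene called. RefSeq promoter sequence was matched by symbol for 9 of the 10 genes, and the 250 bases upstream of the transcription starts of these 3 (build GRCm38.p6, printed 5′ to 3′ on the strand of the gene) are shown here with every match to the GC box, GGGCGG on either strand, in capitals. The *Vac14* stretch was chr8:110618317-110618566 on the plus strand, the *Fig4* stretch chr10:41303242-41303491 on the minus strand and the *Pikfyve* stretch chr1:65186435-65186684 on the plus strand.
Vac14: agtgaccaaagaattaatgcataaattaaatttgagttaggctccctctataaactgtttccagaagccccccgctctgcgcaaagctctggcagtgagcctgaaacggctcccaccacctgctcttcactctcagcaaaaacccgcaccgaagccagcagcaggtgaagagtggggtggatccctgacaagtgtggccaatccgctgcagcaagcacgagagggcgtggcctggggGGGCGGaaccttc
Fig4: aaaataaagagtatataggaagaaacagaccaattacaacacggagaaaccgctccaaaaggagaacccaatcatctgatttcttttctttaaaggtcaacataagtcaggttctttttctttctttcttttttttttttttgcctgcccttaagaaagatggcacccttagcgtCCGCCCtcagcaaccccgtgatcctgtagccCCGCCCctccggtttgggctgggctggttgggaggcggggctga
Pikfyve: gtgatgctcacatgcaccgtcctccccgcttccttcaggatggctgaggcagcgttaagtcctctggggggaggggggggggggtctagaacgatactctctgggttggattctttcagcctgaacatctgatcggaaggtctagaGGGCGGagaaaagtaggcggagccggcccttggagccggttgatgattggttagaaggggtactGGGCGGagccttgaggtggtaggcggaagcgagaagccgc
The *Vac14* stretch held 1 GC box and those of *Fig4* and *Pikfyve* held 2 each, and 32.7% of the 32851 RefSeq promoters of the same length held at least 1. Searched on both strands, none of the 3 held CACGTG, the core of the element read by the lysosomal regulator TFEB, which 6.02% of promoters held, nor the full palindromic estrogen response element, which 0.0639% held. The letters TGANTCA of the AP-1 element were also absent from these windows and were found in 6.75% of promoters. A match is a description of the letters only.

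In build GRCm38 with the GENCODE vM21 annotation, *Vac14* lies on chromosome 8 from 110618585 to 110720398 on the plus strand, *Fig4* on chromosome 10 from 41188172 to 41303260 on the minus strand and *Pikfyve* on chromosome 1 from 65186683 to 65278695 on the plus strand. *Pik3c2b* lies on chromosome 1 from 133045667 to 133108687 on the plus strand and *Pik3c2a* on chromosome 7 from 116337265 to 116443449 on the minus strand. *Pik3c3* is on chromosome 18, and its partner *Pik3r4* on chromosome 9 from 105642978 to 105687657 on the plus strand. *Pik3ca* spans 32397671 to 32468486 of chromosome 3 on the plus strand, *Pik3r1* 101680563 to 101768217 of chromosome 13 on the minus strand and *Inpp4a* 37299865 to 37410736 of chromosome 1 on the plus strand. Exons of *Pik3c2a* shared 1369 bases, 12.3% of its exonic bases, with the antisense gene *Gm44777*, and since the strand setting of the counting is not given in the sources used here, the *Pik3c2a* counts may include reads of that transcript. No other member overlapped an exon of another gene, and at most 1.00% of the 50-base stretches in the transcripts of any other member also occurred in a transcript of another gene.

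The libraries held 25116179 to 29847222 counted reads, and all 10 genes had at least 67 counts in every library and passed the filter on low counts in every comparison. *Mtm1* had 341 to 369 counts in the 3 WT libraries used and 282 to 459 in the WT + TAM libraries, against 63 to 76 in the 3 KO libraries used and 53 to 97 in the KO + TAM libraries. The library labelled WT replicate 1 had 74 *Mtm1* counts, as few as the KO libraries, and KO 12 had 85. In WT 1, 8 of the 10 genes lay below the range of the other WT libraries and 2 above it, and in KO 12, 7 lay below, 2 above and 1 inside the range of the other KO libraries. Muscle fiber markers (6 of 6 measured, none at 0) summed to 110164 to 146912 CPM (counts scaled to a common library total) in WT and 115932 to 132499 in WT + TAM, against 73829 to 83102 in KO and 68104 to 101827 in KO + TAM. Averaged over both diets 4 of the 6 were lower in KO and 1, *Des*, was higher (2735 ± 141 CPM in WT and 5375 ± 736 in KO, SD, n = 3, log2 difference 0.98 in KO against WT), so the sum does not describe each marker. Macrophage and leukocyte markers (6 of 7 measured, none at 0) summed to 105 to 132 CPM in WT and 60.7 to 143 in WT + TAM against 153 to 188 in KO and 154 to 252 in KO + TAM, with 0 of 6 past an adjusted p of 0.01 in either pairwise genotype comparison and 2 of 6 higher averaged over both diets (edgeR). Among fiber markers, *Des* alone passed in KO against WT, and *Des* and *Ckm* (lower) in KO + TAM against WT + TAM (edgeR). Averaged over both diets, 2 of 3 satellite cell and 2 of 4 smooth muscle markers were lower, and 2 of 5 fibroblast markers higher. Endothelial markers had 1 of 6 lower, nerve markers 1 of 4 higher, and fat and red blood cell markers 0 of 4 and 0 of 5. Of all genes, 19.4% passed in that average. The part of these shifts in the differences below was not tested. In whole tissue, fewer cells of a type and less RNA per cell cannot be told apart.

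*Vac14*, the scaffold that holds PIKfyve and FIG4 together, was the member that differed between genotypes. Its CPM, scaled by the trimmed mean of M-values (TMM), were 27.2, 23.1 and 24.8 in WT 2 to 4 and 22.4, 26.3, 25.5 and 24.1 in WT + TAM 5 to 8. They were 41.9, 45.5 and 47.9 in KO 9 to 11 and 46.3, 52.1, 49.9 and 36.4 in KO + TAM 13 to 16. Every KO library lay above every WT library, with or without tamoxifen, and KO + TAM 16 was the lowest of them. Of the libraries left out, KO 12 had 53.5 CPM. The library labelled WT replicate 1, whose *Mtm1* count lay within the KO range, had 31.9 CPM of *Vac14*, between the ranges of both genotypes and under every KO library. *Vac14* was 1.81-fold higher in KO than in WT (95% interval 1.48 to 2.20, log2 fold change 0.85 ± 0.13 SE, adjusted p = 0.00475, edgeR quasi-likelihood test with Benjamini-Hochberg adjustment over all genes). Between KO + TAM and WT + TAM, which share no library with the former pair, it was 1.86-fold higher (1.53 to 2.26, log2 fold change 0.89 ± 0.13 SE, adjusted p = 0.00135 by the same test). Averaged over both diets the difference was 1.81-fold (1.59 to 2.08, adjusted p = 7.84e-06). The call in KO against WT at the threshold of 0.01 was lost when WT 2 (adjusted p = 0.0129), WT 3 (0.0202), WT 4 (0.0237), KO 10 (0.0152) or KO 11 (0.0228) was left out, and with all 16 libraries (0.0246), while the fold change stayed between 0.78 and 0.92 on the log2 scale.

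**Figure D1:**
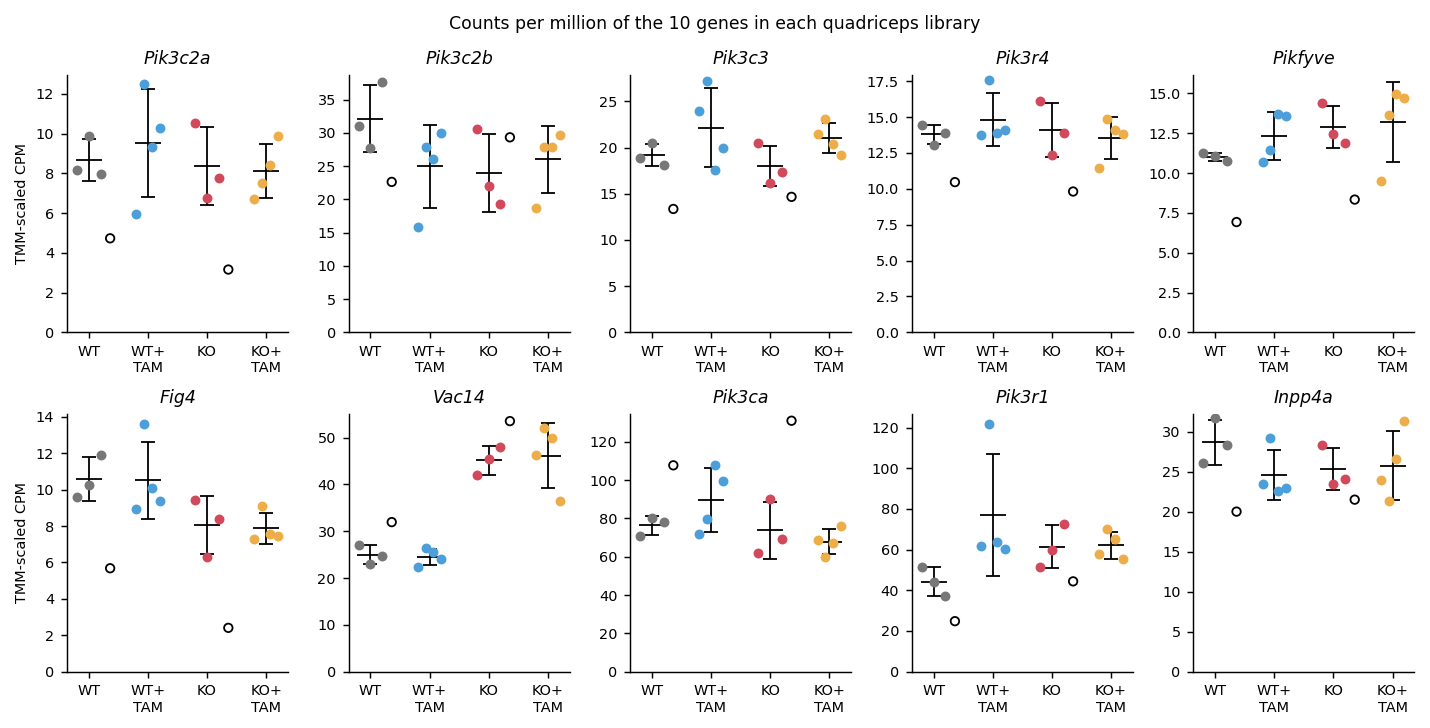
TMM-scaled CPM (vertical axes, each from 0) of the 10 genes in every library, by group (horizontal axes). Filled points are the 14 libraries compared, bars their mean ± SD (n = 3 or 4), and open circles WT 1 and KO 12; the 7 KO and KO + TAM libraries lay above the 7 WT and WT + TAM libraries for *Vac14* and for no other gene.

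*Fig4*, the phosphatase of the complex that turns PtdIns(3,5)P2 back to PtdIns3P, had estimates below 0 in each genotype comparison and did not pass the threshold of 0.01 in any by edgeR. It measured 9.59, 10.2 and 11.9 CPM in WT and 8.96, 13.6, 10.1 and 9.39 CPM in WT + TAM. In KO it measured 9.42, 6.30 and 8.41 CPM, and in KO + TAM 7.31, 9.13, 7.57 and 7.46 CPM. The KO libraries lay below the WT libraries by a narrow margin, and the tamoxifen groups overlapped through WT + TAM 5 and KO + TAM 14. On the scale of the deposited RPKM, reads divided by gene length and library total with no TMM correction, the KO range of 2.27 to 3.30 overlapped the WT range of 2.66 to 3.48. The log2 difference was -0.40 ± 0.19 SE in KO against WT (adjusted p = 0.197, edgeR) and -0.44 ± 0.16 SE in KO + TAM against WT + TAM (adjusted p = 0.0904). Averaged over both diets it was -0.43 ± 0.12 SE (fold 0.743, 95% interval 0.618 to 0.892, adjusted p = 0.0156), short of the threshold of 0.01, and DESeq2 placed it past that threshold (adjusted p = 0.00738).

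*Pikfyve*, the kinase itself, was measured at 11.2, 11.1 and 10.7 CPM in WT, at 14.4, 12.4 and 11.9 CPM in KO, at 10.7, 11.5, 13.7 and 13.6 CPM in WT + TAM and at 9.52, 13.7, 14.9 and 14.7 CPM in KO + TAM. The 3 KO libraries lay above the 3 WT libraries, and the tamoxifen groups overlapped over most of their range. The differences did not pass the test in KO against WT (log2 0.23, 95% interval -0.09 to 0.55, adjusted p = 0.309, edgeR) or in KO + TAM against WT + TAM (log2 0.08, -0.28 to 0.44, adjusted p = 0.78), and averaged over both diets the log2 difference was 0.14 ± 0.11 SE (adjusted p = 0.352).

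To set the 3 complex genes against each other, their counts were divided within each library, which removes the library scaling, and genotypes were compared at a threshold of 0.05. The *Vac14* to *Pikfyve* ratio was 2.27 ± 0.169 in WT (SD, n = 3) and 2.01 ± 0.235 in WT + TAM (n = 4), against 3.53 ± 0.569 in KO (n = 3) and 3.62 ± 0.998 in KO + TAM (n = 4). The lowest KO library had a ratio of 2.91 and the lowest KO + TAM library 2.47, above the highest WT library at 2.42 and the highest WT + TAM library at 2.30. Of the libraries left out, KO 12 had a ratio of 6.42. WT 1 had 4.61, above every WT and WT + TAM library compared and within the KO + TAM range of 2.47 to 4.86. The ratio was 1.65-fold higher in KO (mean log2 difference 0.72, 2-sided exact permutation of genotype within diet over 1400 arrangements, p = 0.00143, the smallest this design allows, 0.00714 adjusted over 5 ratios). These ratios use the same *Vac14* counts as the tests above and are not independent of them. The *Fig4* to *Pikfyve* ratio was 0.963 ± 0.132 in WT, 0.864 ± 0.224 in WT + TAM, 0.623 ± 0.104 in KO and 0.612 ± 0.129 in KO + TAM (SD, n = 3 or 4). It was lower in KO by a mean log2 difference of -0.56 (exact permutation p = 0.00571, 0.0143 adjusted over the 5 ratios). Within the untreated or the tamoxifen libraries alone, the log2 differences were 0.63 and 0.82 for *Vac14* to *Pikfyve* and -0.63 and -0.49 for *Fig4* to *Pikfyve*, without and with tamoxifen. In the untreated libraries 3 against 3 allow no exact p under 0.1, which both ratios gave. In the tamoxifen libraries the exact permutation p was 0.0286 for *Vac14* to *Pikfyve*, the smallest that 4 against 4 allow, and 0.114 for *Fig4* to *Pikfyve*, whose groups overlapped. Over both diets, the libraries compared thus held more *Vac14* and fewer *Fig4* counts per *Pikfyve* count in KO. The 5 ratios were chosen with earlier results of these data known, and how often other gene pairs would pass was not tested. Neither *Fig4* nor *Pikfyve* passed alone by edgeR at the threshold of 0.01.

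**Figure D2:**
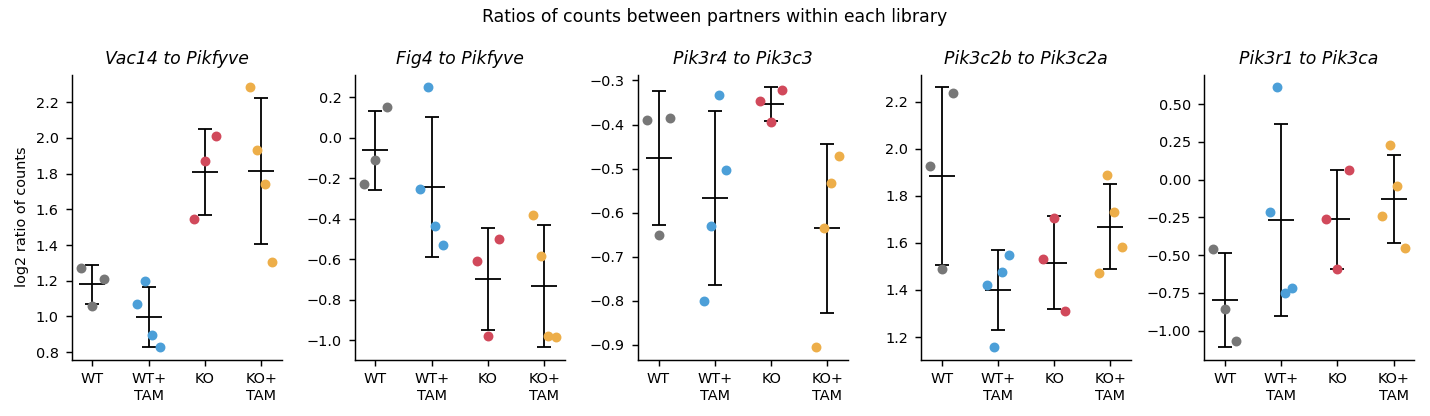
Log2 ratio of counts between 5 pairs of partner genes (vertical axes, each with its own range) in the 14 libraries by group, with points for libraries and bars for mean ± SD (n = 3 or 4). KO and KO + TAM libraries lay above WT and WT + TAM libraries for *Vac14* to *Pikfyve*, and the groups overlapped for *Pik3r4* to *Pik3c3*, *Pik3c2b* to *Pik3c2a* and *Pik3r1* to *Pik3ca*. For *Fig4* to *Pikfyve* the genotypes also overlapped, with WT + TAM 8 at -0.53 below KO 11 at -0.50 and KO + TAM 13 at -0.38.

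The class II kinases did not pass the test in any comparison. *Pik3c2b*, the gene of the class II kinase PI3K-C2β, measured 31.0, 27.8 and 37.7 CPM in WT and 30.5, 22.1 and 19.3 CPM in KO. It measured 15.9, 27.9, 26 and 30.02 CPM in WT + TAM and 18.6, 27.9, 27.9 and 29.7 CPM in KO + TAM. The untreated groups overlapped through KO 9, and each tamoxifen group held 1 library, WT + TAM 5 and KO + TAM 13, well under the other 3. The log2 difference was -0.43 ± 0.19 SE in KO against WT (95% interval -0.86 to 0.01, adjusted p = 0.171, edgeR) and 0.04 ± 0.20 SE in KO + TAM against WT + TAM (-0.40 to 0.48, adjusted p = 0.913). *Pik3c2a*, which makes PtdIns(3,4)P2 at clathrin-coated pits, ranged from 7.99 to 9.91 CPM in WT, 6.75 to 10.6 in KO, 5.94 to 12.5 in WT + TAM and 6.71 to 9.90 in KO + TAM, with log2 differences of -0.05 (adjusted p = 0.887) and -0.25 (adjusted p = 0.461) between genotypes without and with tamoxifen. WT 1 and KO 12, left out here, had 4.73 and 3.16 CPM of *Pik3c2a*. The *Pik3c2b* to *Pik3c2a* ratio was 3.77 ± 0.955 in WT, 2.65 ± 0.298 in WT + TAM, 2.88 ± 0.392 in KO and 3.2 ± 0.404 in KO + TAM (SD, n = 3 or 4), and the genotype difference did not pass (mean log2 difference -0.05, exact permutation p = 0.781). The remaining class II gene, *Pik3c2g*, was too low to be tested.

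The class III pair had small differences between genotypes, and neither gene passed the test. *Pik3c3*, the gene of the PtdIns3P kinase VPS34, ranged from 18.2 to 20.5 CPM in WT, 16.2 to 20.5 in KO, 17.5 to 27.2 in WT + TAM and 19.2 to 23.0 in KO + TAM. Its regulatory subunit gene *Pik3r4* (VPS15) ranged from 13.1 to 14.4 CPM in WT, 12.3 to 16.1 in KO, 13.7 to 17.6 in WT + TAM and 11.5 to 14.8 in KO + TAM. The log2 differences between genotypes were -0.09 and -0.09 for *Pik3c3* and 0.03 and -0.15 for *Pik3r4*, without and with tamoxifen, with adjusted p-values of 0.479 to 0.912 (edgeR). Their 95% intervals lay within -0.44 and 0.36. There were 0.722 ± 0.0737 *Pik3r4* counts for each *Pik3c3* count in WT, 0.679 ± 0.0929 in WT + TAM, 0.783 ± 0.0204 in KO and 0.648 ± 0.0821 in KO + TAM (SD, n = 3 or 4, exact permutation p = 0.756). Partners that direct the class III kinase to autophagy or endosomes did not pass either: *Becn1* differed by a log2 value of -0.06 in KO against WT and 0.01 in KO + TAM against WT + TAM, *Uvrag* by -0.16 and -0.07, and *Atg14* by -0.25 and -0.34 (adjusted p = 0.133 for the last).

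Of the class I genes, *Pik3ca*, the catalytic subunit p110α, had 1667 to 2768 counts in the 14 libraries and passed in no comparison. It ranged from 71.0 to 80.1 CPM in WT and from 61.7 to 90.3 in KO, and its 4 values were 71.8, 79.9, 108 and 99.3 CPM in WT + TAM and 68.6, 59.8, 67.0 and 76.0 CPM in KO + TAM. The tamoxifen groups overlapped between WT + TAM 5 and KO + TAM 16. The log2 difference was -0.05 in KO against WT (95% interval -0.41 to 0.32) and -0.42 ± 0.14 SE in KO + TAM against WT + TAM (adjusted p = 0.0643, edgeR). *Pik3r1*, the regulatory subunit p85α, measured 51.6, 44.2 and 37.1 CPM in WT and 51.5, 60.0 and 72.5 CPM in KO. It measured 61.8, 122, 64.0 and 60.5 CPM in WT + TAM and 58.0, 70.1, 65.0 and 55.6 CPM in KO + TAM. WT + TAM 6 stood far above the other 3 of its group, and WT was the lowest of the 4 groups. The log2 difference was 0.47 ± 0.17 SE in KO against WT (adjusted p = 0.0988) and -0.32 ± 0.21 SE in KO + TAM against WT + TAM (adjusted p = 0.314), and the latter was -0.024 without WT + TAM 6. The *Pik3r1* to *Pik3ca* ratio was 0.585 ± 0.129 in WT, 0.897 ± 0.436 in WT + TAM, 0.849 ± 0.192 in KO and 0.929 ± 0.189 in KO + TAM (SD, n = 3 or 4, exact permutation p = 0.157, 0.262 adjusted over the 5 ratios). Without WT + TAM 6 the genotype difference in this ratio was 0.48 on the log2 scale with an adjusted permutation p of 0.031. That was the largest difference among 14 runs that each left out 1 library, over which the adjusted permutation p ran from 0.031 to 0.49. Of the other class I genes given here, *Pik3cb* differed by a log2 value of -0.16 without and -0.54 with tamoxifen (adjusted p = 0.0597 for the latter), *Pik3r2* by -0.04 and -0.18, and *Pik3r3* by 0.18 and 0.54 (adjusted p = 0.191 for the latter).

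*Inpp4a*, a phosphatase that removes the 4-phosphate from PtdIns(3,4)P2 to leave PtdIns3P, ranged from 26.1 to 31.7 CPM in WT, 23.5 to 28.4 in KO, 22.7 to 29.2 in WT + TAM and 21.4 to 31.3 in KO + TAM. All 4 ranges overlapped. The log2 difference was -0.18 ± 0.13 SE in KO against WT (adjusted p = 0.393, edgeR) and 0.05 ± 0.14 SE in KO + TAM against WT + TAM (adjusted p = 0.833).

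In KO against WT, 1 of the 10 genes passed an adjusted p of 0.01, beside 3.6% of the 14740 genes tested, and 3 of the 10 did not overlap between the groups in CPM (*Vac14* and *Pikfyve* above, *Fig4* below), beside 34.9% of the 15556 genes kept in the fit of all 4 groups, a share near that of the 10. In KO + TAM against WT + TAM, 1 of 10 passed, beside 6.72% of 14563 genes, and *Vac14* alone did not overlap, beside 21.6% of the 15556 genes. Averaged over both diets, 1 of 10 passed, beside 19.4% of 15556 genes, and *Vac14* alone separated the 7 KO from the 7 WT libraries, as did 10.7% of those genes. One gene in 10 is near these shares, so the result concerns *Vac14* and not the 10 genes together. The median log2 difference over the 10 genes was -0.05 in KO against WT and -0.12 in KO + TAM against WT + TAM, beside 0.02 and -0.01 over all genes tested. Without TMM scaling the median of all genes moved to 0.33 and 0.27. The 10 most abundant genes took 23.6% to 27.6% of counts in the WT and WT + TAM libraries compared and 15.01% to 19.04% in the KO and KO + TAM libraries compared.

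**Figure D3:**
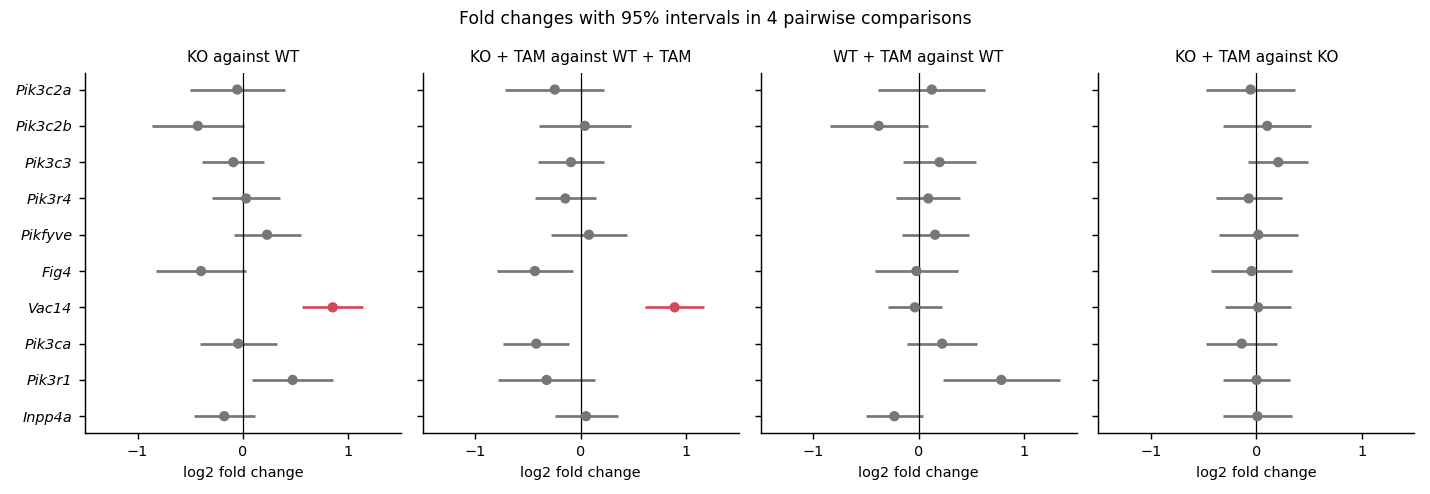
Log2 fold changes (horizontal axes) with 95% intervals for the 10 genes in the 4 pairwise comparisons. *Vac14*, in red, was the one gene past an adjusted p of 0.01, at 0.85 in KO against WT and 0.89 in KO + TAM against WT + TAM, and no gene passed in either tamoxifen comparison.

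Tamoxifen moved none of the 10 genes past the threshold. In KO + TAM against KO, 0 of 10 passed by edgeR, beside 0% of 15062 genes. None had an unadjusted p under 0.05, beside 7.55% of all genes. DESeq2 and the edgeR exact test also called none of the 10, but they called only 72 and 73 of the 15062 genes. The log2 differences ran from -0.14 for *Pik3ca* to 0.21 for *Pik3c3*. *Vac14*, raised in KO, was at 45.1 ± 3.03 CPM in KO (SD, n = 3) and 46.2 ± 6.96 in KO + TAM (SD, n = 4), a fold of 1.01 with a 95% interval of 0.813 to 1.26. *Fig4* was at 8.04 ± 1.59 CPM in KO and 7.87 ± 0.846 in KO + TAM, a fold of 0.968 (0.741 to 1.27). *Pik3c2b* was at 24.0 ± 5.85 CPM in KO and 26.01 ± 4.99 in KO + TAM, a fold of 1.07 (0.803 to 1.44). These 95% intervals give the uncertainty of each fold change in KO muscle, and they do not show that the levels were equal.

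In WT + TAM against WT, 0 of 10 passed by edgeR, beside 0.131% of 14544 genes. *Pik3r1* was the 1 gene with an unadjusted p under 0.05 (adjusted p = 0.287, edgeR), at a log2 difference of 0.79 ± 0.25 SE, and its 4 WT + TAM libraries lay above its 3 WT libraries, a separation that 11.1% of the 15556 genes showed in one direction or the other. Without WT + TAM 6 this difference was 0.49. *Pik3c2b* was lower by a log2 value of -0.38 (95% interval -0.84 to 0.09, adjusted p = 0.563), a difference that did not pass. *Vac14* was at 25 ± 2.05 CPM in WT (SD, n = 3) and 24.6 ± 1.72 in WT + TAM (SD, n = 4), a fold of 0.976 (0.816 to 1.17).

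Averaged over genotype, tamoxifen moved 0 of 10 genes past the threshold by edgeR, beside 0.591% of 15556 genes, with *Pik3r1* again the 1 gene with an unadjusted p under 0.05 (log2 0.40 ± 0.15 SE, adjusted p = 0.239, edgeR). *Pik3c3* was 0.21 higher on the log2 scale (95% interval 0.00 to 0.42, adjusted p = 0.354). The interaction, which asks whether tamoxifen acted differently in KO and WT, passed in 0 of 10 genes by edgeR, beside 0% of 15556 genes. *Pik3r1* had the 1 unadjusted p under 0.05 there (log2 -0.77 ± 0.31 SE, adjusted p = 0.9998, edgeR), and *Pik3c2b* had an interaction of 0.49 (95% interval -0.16 to 1.14). Without WT + TAM 6 the *Pik3r1* values were 0.25 for tamoxifen averaged over genotype and -0.47 for the interaction.

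Compared per length on the RPKM scale, the 10 genes covered a wide range. The mean over the 14 libraries was 12.2 RPKM for *Vac14*, 8.59 for *Pik3ca*, 6.30 for *Pik3r1*, 4.60 for *Pik3c3*, 3.35 for *Inpp4a*, 2.92 for *Pik3c2b*, 2.84 for *Fig4*, 1.48 for *Pik3r4*, 1.09 for *Pik3c2a* and 0.688 for *Pikfyve*. The kinase *Pikfyve* was thus the lowest of the 10, below its own scaffold and phosphatase in each of the 14 libraries. *Fig4* and *Pik3r4* were the only neighbours in this order whose ranges did not overlap. The place of *Vac14* depended on genotype: it exceeded *Pik3ca* in 7 of 7 KO and KO + TAM libraries and in 1 of 7 WT and WT + TAM libraries, with group means of 7.63 RPKM in WT, 7.43 in WT + TAM, 17.03 in KO and 16.8 in KO + TAM, against 7.74, 9.06, 9.33 and 8.19 for *Pik3ca*. On the deposited RPKM scale, which has no TMM correction, *Vac14* was therefore first in KO muscle and below *Pik3ca* on average in WT muscle. Its place within each genotype also depends on the gene length used. *Pik3c2b* exceeded *Fig4* in 8 of 14 libraries, in 5 of 7 KO and 3 of 7 WT libraries, so this pair kept no order, and *Inpp4a* exceeded *Pik3c2b* in 10 of 14. *Pik3ca* exceeded *Pik3r1* and *Pik3r1* exceeded *Pik3c3* in 12 of 14 each, and the other neighbours kept their order in all 14. The order depends on the length used: the RPKM values implied a length of 3028 bases for *Vac14*, where GENCODE vM21 lists 6960 exonic bases, and with the latter *Vac14* would be at 5.31, below *Pik3ca* and *Pik3r1*. The implied length of *Inpp4a* was 7858 of 10387 exonic bases, which would place it at 2.54, below *Pik3c2b* and *Fig4*.

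**Figure D4:**
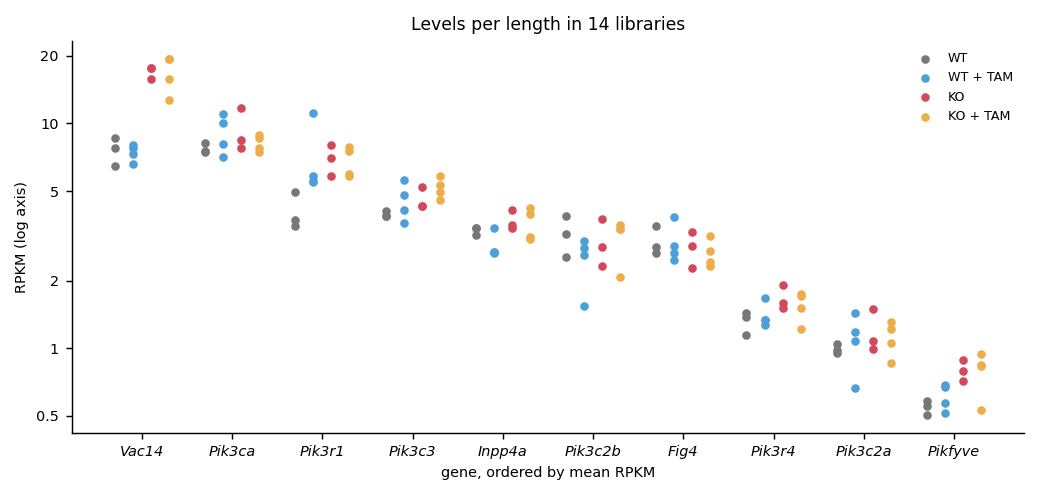
RPKM (vertical log axis) of the 10 genes in the 14 libraries, ordered by mean and coloured by group. *Vac14* split by genotype, at 6.44 to 8.65 in WT and WT + TAM libraries and 12.7 to 19.4 in KO and KO + TAM libraries, and *Pikfyve* was lowest at 0.506 to 0.943.

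The spread within groups differed between the 10 genes. The pooled coefficient of variation of CPM within groups was 10.3% for *Vac14*, 11.05% for *Pik3r4*, 12.96% for *Pik3c3*, 13.1% for *Inpp4a*, 13.3% for *Pikfyve*, 14.9% for *Pik3ca* and 16.1% for *Fig4*. It reached 21.6% for *Pik3c2b*, 21.7% for *Pik3c2a* and 24.5% for *Pik3r1*. *Vac14* was therefore the least variable of the 10 within groups, and the class II genes and *Pik3r1* the most.

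The 10 genes were read beside 89 other phosphoinositide genes, of which 86 were tested. In KO against WT the 1 of these past the threshold was *Mtm1* itself (log2 -2.56 ± 0.17 SE, adjusted p = 0.000214, edgeR). In KO + TAM against WT + TAM, 3 passed, all lower: *Mtm1* (log2 -2.52 ± 0.20 SE, adjusted p = 5.38e-05), *Mtmr3*, another phosphatase of the myotubularin family (log2 -0.46 ± 0.10 SE, adjusted p = 0.00956), and *Pip5k1c*, a kinase that makes PtdIns(4,5)P2 (log2 -0.58 ± 0.10 SE, adjusted p = 0.00419). In KO against WT, *Mtmr3* and *Pip5k1c* differed by log2 values of -0.47 (adjusted p = 0.0309) and -0.48 (adjusted p = 0.0322). None of these 86 genes passed in either tamoxifen comparison (edgeR).

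Averaged over both diets, 3 of the 86 were higher and 12 lower in KO, 17.4% beside 19.4% of all genes. Of the 15 genes of 3-phosphatases and their catalytically inactive relatives, *Mtm1* included, 4 passed and all were lower, with a median log2 difference of -0.27 over the list beside 0.01 over all genes. Of 18 tested readers of 3-phosphoinositides, 5 passed, named here after their values were seen. *Hgs*, an endosomal sorting protein that binds PtdIns3P (log2 0.62), *Wipi1*, an autophagy protein that binds PtdIns3P (0.42), and *Snx1*, a sorting nexin (0.32), were higher, and the PtdIns(3,5)P2-gated channel gene *Tpcn1* (-0.61) and *Zfyve9* (-0.76) were lower. Of the 11 class I genes 1 passed, lower, and of the 7 tested class III complex genes 0 passed (edgeR). The insulin and AKT genes had 2 of 15 lower, the 5-phosphatases 1 of 11 lower, the 4-phosphatases 0 of 4 and the 4- and 5-kinases 2 of 10 lower.

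**Figure D5:**
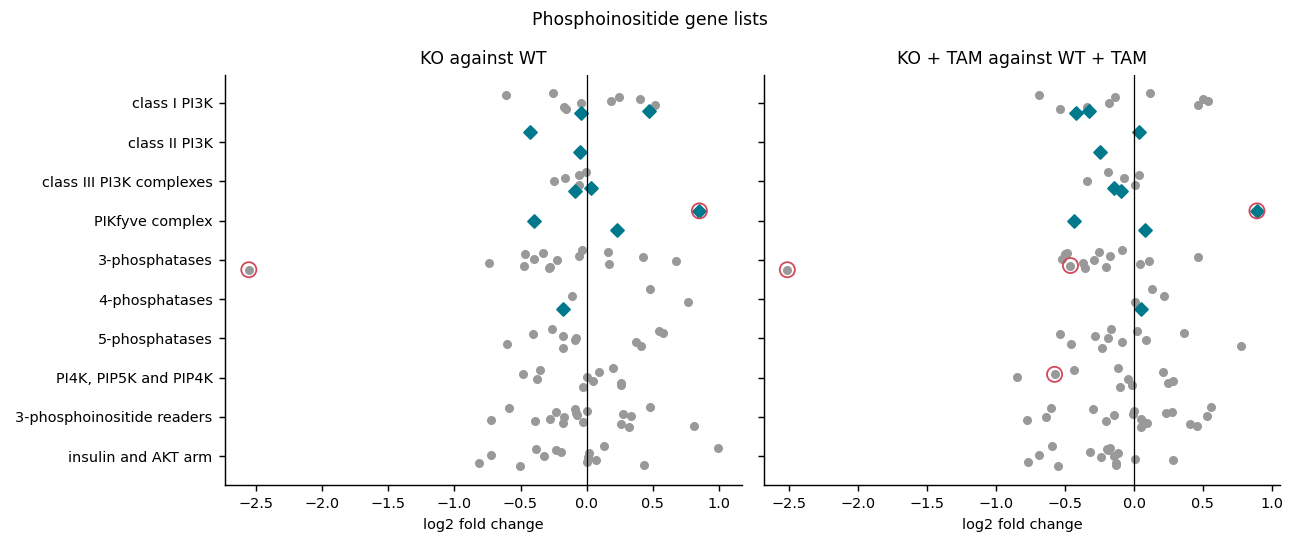
Log2 fold changes (horizontal axes) of the genes of 10 phosphoinositide lists (rows) in KO against WT and in KO + TAM against WT + TAM. Diamonds are the 10 genes described here, grey points the other genes, and red rings mark an adjusted p of at most 0.01; *Vac14* was the one gene ringed to the right of 0 in either panel, and *Mtm1* lies at -2.56 and -2.52.

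Among the 15556 genes kept in the fit of all 4 groups, those whose log2 CPM over the 14 libraries was most like that of *Vac14* were *Mvp* (Pearson r = 0.975, Spearman rho = 0.855), *AA414768* (0.973, 0.925) and *Tlr2* (0.972, 0.912). The most like *Pik3c2b* were *Yes1* (0.924, 0.842), *Cnot6* (0.897, 0.675) and *Dot1l* (0.889, 0.714). These describe 14 libraries that fall into 2 genotypes, and for *Vac14* the likeness follows that split.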

How the data were processed

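RNA was extracted from quadriceps of 16 mice, made into TruSeq libraries and sequenced on a HiSeq 2500. The authors used STAR for alignment to GRCm38 and HTSeq for the counts per gene, and the submitters' processing notes list bcl2fastq 2.17, STAR 2.5.0c and Cufflinks 2.2.1. For the annotation, strand setting and counting mode, these were not given in the sources used here. The deposited values were raw counts and, in a second table, RPKM that the authors scaled to the library total and gene length. Groups came from the labels, and WT 1 and KO 12 were left out as in the study. The members, gene lists and ratios were chosen with earlier results of these data known.

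Counts were tested with edgeR 4.0.16 (R 4.3.3): filterByExpr, TMM, and the quasi-likelihood test on 2 groups for each of 4 pairwise comparisons, and on all 4 groups for the genotype and tamoxifen averages and their interaction, with Benjamini-Hochberg adjustment over all genes and a threshold of 0.01. CPM are scaled by TMM over 16 libraries. SE are on the log2 scale. The scripts were tested on simulated data. Ratios of counts were compared by 2-sided exact permutation (Python 3.11.15). All members were named in every comparison, and up to 3 genes of each other list with the lowest p among those past the threshold in a pairwise comparison, plus named partners. The readers of 3-phosphoinositides fell outside this rule: they passed only averaged over both diets and were named after their values were seen. For *Vac14* and *Pik3c2b* the 3 genes with the highest Pearson r were named. Alternatives were DESeq2 1.42.0, the edgeR exact test, limma 3.58.1 on log2(RPKM + 0.1) and log2(RPKM + 1), other scalings, filters and thresholds, 1 fit of all groups, all 16 libraries, and each library left out.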

Additional observations from a re-analysis of the deposited data

Results flagged for a closer look

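Of the 20 groups of 4 libraries examined for a library far from the rest (10 genes in the WT + TAM and KO + TAM groups), 5 held one whose gap to its nearest neighbour was large against the whole range of the group, where chance gives about 1 in 20 for independent groups. The same libraries recur across the 10 genes, so these groups are not independent, and 5 of 20 is no test against that rate. WT + TAM 6, the highest of its group for 7 of the 10 genes, stood apart in this way for 3 of them: *Pik3r1* at 122 CPM against 60.5 to 64.0 in the other 3 libraries, *Pik3r4* at 17.6 CPM against 13.7 to 14.1, and *Inpp4a* at 29.2 CPM against 22.7 to 23.5. KO + TAM 13 had the lowest *Pik3c2b*, at 18.6 CPM against 27.9 to 29.7, and KO + TAM 14 had the highest *Fig4*, at 9.13 CPM against 7.31 to 7.57. No member differed in its tamoxifen effect between genotypes past the threshold.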

How the results depend on the processing

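No paired analysis was possible because the replicate numbers 1 to 16 are not shared between groups. *Vac14* was higher in KO under every alternative run: it passed in all settings tried for KO + TAM against WT + TAM and for the average over diets, and in KO against WT its call was lost with all 16 libraries (0 members called). Leaving out 1 library gave 0 to 1 members called in KO against WT, where *Vac14* passed in only 1 of 6 such runs. It gave 1 member called in both other genotype comparisons. Averaged over diets, 2 members were called at an adjusted p of 0.05 (*Fig4* added), by DESeq2 (*Fig4*, log2 -0.42) and with library size only (*Pikfyve*). With library size only, 5100 of all 15556 genes were called there, against 3013 with TMM. The median log2 difference of all genes moved to 0.31 in that setting, so the call is not a result about *Pikfyve* alone. The numbers of members called in the tamoxifen comparisons and the interaction stayed at 0 in every alternative run. Few genes of any kind were called in KO + TAM against KO, 72 of 15062 with DESeq2 and 73 with the exact test. Values under library size only and limma are given relative to the median of all genes, where that median moved by over 0.1. The cause of the changes below was not tested.

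For the *Vac14* to *Pikfyve* ratio the adjusted permutation p rose to 0.25 in untreated libraries alone (log2 difference 0.63) and 0.143 in tamoxifen libraries alone (0.82), and for *Fig4* to *Pikfyve* to 0.25 (-0.63) and 0.19 (-0.49). The untreated libraries alone cannot give an unadjusted p under 0.1, and the tamoxifen libraries alone cannot go under 0.0286, which *Vac14* to *Pikfyve* reached and *Fig4* to *Pikfyve* (0.114) did not. Leaving out 1 library gave 0.64 to 0.81 and -0.62 to -0.48. The *Pik3r4* to *Pik3c3* difference turned to -0.0167 with all 16 libraries and -0.0678 in tamoxifen libraries alone, and ran from -0.0169 to 0.0718 with 1 library left out. The *Pik3c2b* to *Pik3c2a* difference turned to 0.12 and 0.27 in the same settings and ran from -0.15 to 0.0393. *Pik3r1* to *Pik3ca* ran from 0.26 to 0.48, with adjusted permutation p from 0.031 to 0.49, passing without WT + TAM 6.

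Differences near 0 changed sign. With 1 library left out, KO against WT ran from -0.24 to 0.0807 for *Pik3c2a*, -0.0583 to 0.12 for *Pik3r4* and -0.22 to 0.0809 for *Pik3ca*. KO + TAM against WT + TAM ran from -0.13 to 0.18 for *Pik3c2b*, -0.19 to 0.0118 for *Pik3c3* and -0.0517 to 0.13 for *Inpp4a*, and KO + TAM against KO from -0.26 to 0.0433 for *Pik3ca* and -0.0227 to 0.30 for *Pik3c2b*. With limma on log2(RPKM + 1) *Pik3ca* was at 0.0266 in KO against WT, and *Pik3c3* at 0.00681 and *Pikfyve* at -0.0108 in KO + TAM against WT + TAM. With all 16 libraries *Pik3ca* was at 0.062 in KO against WT.

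The number of all genes called in KO against WT was 531, 1678 with DESeq2, 1448 with the edgeR exact test, 1163 with library size only, 1096 without a filter, 987 in 1 fit of all 4 groups, 211 with all 16 libraries and 182 to 363 with 1 library left out. In KO + TAM against WT + TAM it was 979, 1995 with DESeq2, 1818 with the exact test, 1874 with library size only and 424 to 921 with 1 library left out. With 3 or 4 libraries a group, the 95% intervals printed are unadjusted and are not limits of detection at the threshold of 0.01. *Pik3r1* in WT + TAM against WT had a fold interval of 1.17 to 2.53 and did not pass (adjusted p = 0.287, edgeR).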
